A study of Homo sapiens with 34 samples.

Results

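The core sites are the stretches of genome where peaks of all 4 YAP/TAZ constructs of the study overlapped: TAZ4SA, TAZ-CAMTA1 (TC), YAP5SA and YAP-TFE3 (YT). Peaks of 6 constructs on chromosomes 1 to 22 and X were merged wherever they shared at least 1 bp. A merged region was kept as core when it held a peak of each of the 4. Of 6543 merged regions, 269 were core, or 4.11%. The members were chosen by the presence of a called peak in each of 4 lists, so their number, the 4 signals inside them and the overlap of those signals are a description of that choice and support nothing further.

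YAP and TAZ are transcriptional coactivators held in check by the Hippo pathway. They have no DNA-binding domain of their own and reach chromatin mainly through TEAD transcription factors. When the pathway is off they enter the nucleus and switch on genes for growth and survival, many of them from distant enhancers. TC and YT are gene fusion products that drive a sarcoma of blood vessel type, epithelioid hemangioendothelioma. In both, the amino-terminal, TEAD-binding part of TAZ or YAP is followed by the carboxy-terminal part of CAMTA1 or TFE3. CAMTA1 is a calmodulin-binding transcription activator. TFE3 belongs to the MiT family, whose members bind E-box sequences of lysosomal and other genes through a basic helix-loop-helix leucine zipper.

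SW872 human liposarcoma cells were studied by Flag chromatin immunoprecipitation and sequencing after stable transduction with 1 Flag-tagged construct or with an empty vector (EV). The groups were TAZ4SA and YAP5SA (active forms whose LATS-phosphorylated serines are replaced by alanines), the fusions TC and YT, and full-length CAMTA1 and TFE3, with 3 Flag libraries and 2 input libraries each. EV cells had 2 IgG and 2 input libraries, which made 34 libraries in all. The cells were grown to near confluence, and the sources differ on whether CAMTA1 cells were collected before it. The model is a sarcoma line with forced expression, not the endothelial-type tumor in which the fusions arise. Replicate reads were pooled by the authors before peak calling, so there was 1 list per construct, no spread between replicates exists for any value, and no test over samples was possible.

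The lists that entered the merge held 1166 TAZ4SA, 1184 TC, 3754 YAP5SA and 3336 YT peaks, with 156 CAMTA1 and 299 TFE3 peaks. Pooled depth, as mean coverage recovered from the peak values, was 2.33 and 2.52 fragments per base for TAZ4SA and TC, against 10.7 and 10.5 for YAP5SA and YT. Technical set and protein family therefore cannot be told apart between a TAZ and a YAP construct, and no fold ratio between families is given here. The shorter lists gave the larger shares: 23.9% of TAZ4SA peaks and 23.1% of TC peaks lay in core regions, against 7.25% of YAP5SA and 8.36% of YT peaks.

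The 4 constructs met rarely. A further 489 merged regions (7.47%) held exactly 3 of the 4, 1263 (19.3%) held 2 and 4326 (66.1%) held 1. The other 196 regions held peaks of CAMTA1 or TFE3 only. Among regions holding exactly 3 constructs, TAZ4SA was the one without a peak in 203 and TC in 195. YT was the one without a peak in 64, and YAP5SA in 27. Regions one short of core thus mostly lacked a peak from one of the lists with lower coverage, and the part of coverage was not tested.

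**Figure D1:**
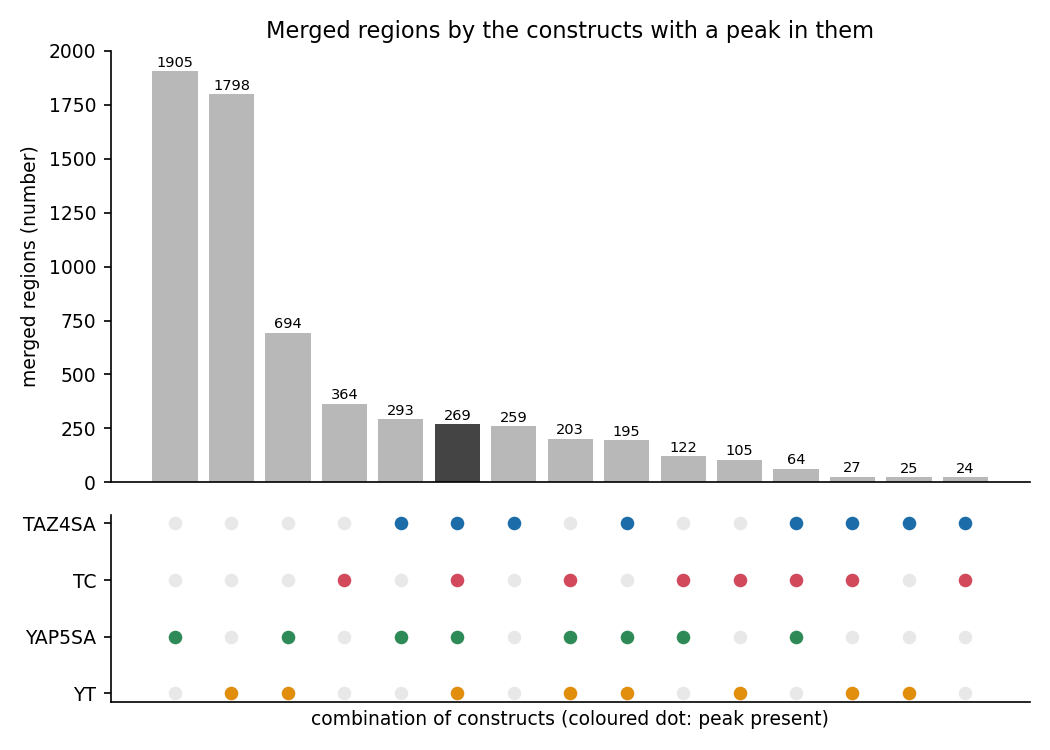
The bars give the number of merged regions on the vertical axis for each combination of TAZ4SA, TC, YAP5SA and YT peaks, marked by the coloured dots below. The dark bar is the 269 core regions, and the tallest bars are 1905 regions with YAP5SA alone and 1798 with YT alone.

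Core regions were wide. Their median width was 852 bp (382 to 3965), against 606 bp for regions holding exactly 3 constructs and 352 bp for all other regions holding any of the 4. A merged region grows with the number of peaks in it, and core peaks were also wider one by one: the median TC peak spanned 538.5 bp in core regions and 374.5 bp outside, and the median YAP5SA peak 596.5 bp and 312 bp. Exactly 1 peak of each construct was present in 250 core regions (92.9%). In 264 (98.1%) there was a stretch covered by all 4 peaks at once, of median length 316.5 bp. In the other 5 regions the peaks were joined through a chain of overlaps with no position common to all 4.

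The core sites sat toward the strong end of every list. The sources used here do not settle whether input or EV IgG libraries gave the local background, and every fold enrichment and fold ratio is relative to that background. Fold enrichment is the fragment pileup at a summit over the local background, with a small constant added to both. For TAZ4SA its median was 7.67 in core regions and 5.42 elsewhere. The medians were 6.54 and 4.83 for TC, 7.18 and 4.82 for YAP5SA, and 5.75 and 4.35 for YT. Peaks in regions holding exactly 3 constructs lay between, for example at 6.62 for TAZ4SA and 5.03 for YT.

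When the regions of each list were ranked by −log10 q, core regions made up 46.1% of the strongest 10% for TAZ4SA and 3.45% of the weakest 10%. For TC these shares were 52.1% and 5.08%, for YAP5SA 30.2% and 1.33%, and for YT 20.5% and 1.51%. A strong peak did not by itself place a region in the core: 113 of the 374 strongest YAP5SA regions were core, and the rest lacked at least 1 other construct.

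**Figure D2:**
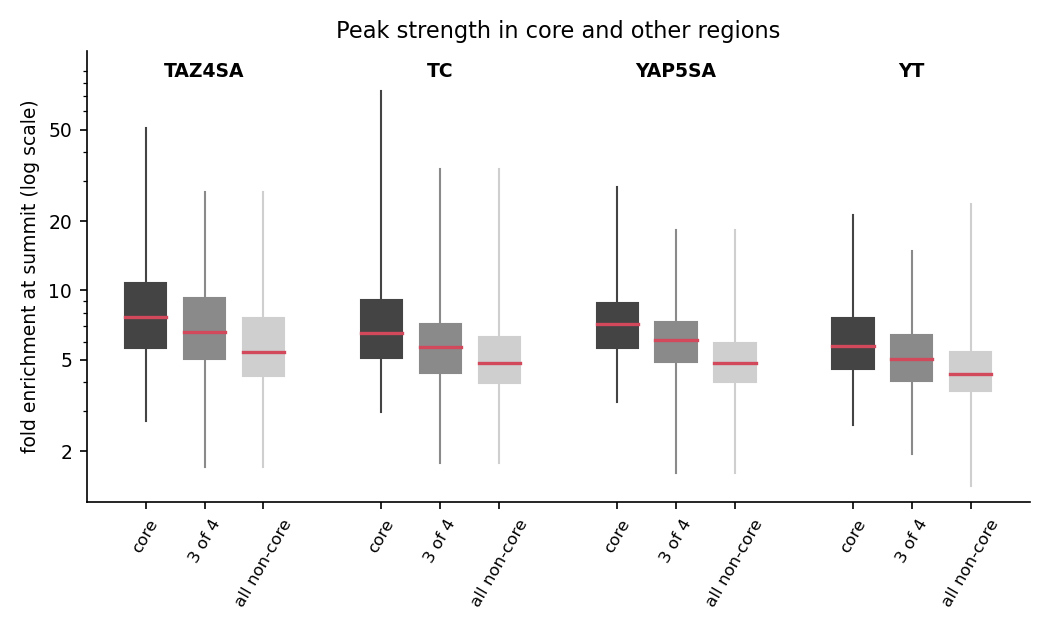
Fold enrichment at the summit (log scale) is shown for each construct in core regions, in regions holding exactly 3 of the 4, and in all non-core regions with a peak of that construct. Boxes span the quartiles, red lines are medians and thin lines run from the lowest to the highest region; the core medians, from 5.75 for YT to 7.67 for TAZ4SA, lie above the non-core medians of 4.35 to 5.42.

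Strength in all 4 constructs together was uncommon even here. Of the 269 core regions, 171 had −log10 q above 5 in every construct and 64 had it above 10. Fold enrichment was above 5 in all 4 constructs in 129 regions and above 10 in 4. YT had the lowest −log10 q of the 4 in 109 core regions, TC in 66, YAP5SA in 54 and TAZ4SA in 40. At the weak end, 15 core regions had at least 1 construct with q of 0.01 or above.

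The 6 sites named first are those whose weakest construct was strongest, by −log10 q. At chr7:5630951-5632013 (GRCh37, as all positions here) fold enrichment was 26.7 for TAZ4SA, 13.2 for TC, 17.9 for YAP5SA and 10.4 for YT, and the 4 summits fell within 30 bp of each other. At chr5:1326298-1328941 the values were 37.4, 9.12, 28.1 and 15.8 in the same order. Fold enrichment at both sites was higher for the active forms than for the fusions. The ratio at the chr5 site was 0.244 for TC over TAZ4SA and 0.563 for YT over YAP5SA. On summit fragments these ratios were 0.415 (95% interval for counting error 0.306 to 0.557) and 0.600 (0.508 to 0.709), and the local background used there was 2.56 times its genome-wide level for TC and 1.29 times for TAZ4SA.

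The next 4 sites did not share that order. At chr19:2540320-2541577 the TAZ pair was nearly level, with fold enrichment of 26.1 for TAZ4SA and 24.1 for TC, and the YAP pair was at 15.4 and 11.0. At chr7:151450973-151451742 the 4 values were 18.6, 14.1, 11.3 and 14.2. The fusions had the higher value of each pair at chr16:68271299-68272153, where TAZ4SA was at 12.3, TC at 20.7, YAP5SA at 12.8 and YT at 13.3.

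The remaining site of the 6, chr19:2462456-2463941, held the highest value of the whole core set. TC reached a fold enrichment of 73.8 there, with 10.5 for TAZ4SA, 12.0 for YAP5SA and 9.31 for YT. The ratio of TC to TAZ4SA was 7.05, the highest of any core region, while the YT to YAP5SA ratio was 0.776. The summits of all 4 constructs lay within 23 bp. This site and the one at chr19:2540320-2541577 are both near the start of chromosome 19.

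At the edge of the rule, the weakest core regions rested on 1 marginal peak each. At chr19:13147802-13148494 the TC peak had a −log10 q of 1.06 and a fold enrichment of 3.05, beside 5.08 for TAZ4SA, 3.96 for YAP5SA and 3.49 for YT. At chr7:100100569-100101676 the weak member was TAZ4SA (−log10 q 1.36, fold enrichment 2.71), and at chr11:69068965-69069517 it was TC (1.51 and 3.27). As a class, regions holding exactly 3 constructs had lower median fold enrichment than core regions for every construct. The strongest region lacking each construct nevertheless exceeded these weakest core regions in the constructs it held. The strongest region without TAZ4SA, chr7:2348700-2350144, had fold enrichment of 14.2 for TC, 8.83 for YAP5SA and 9.09 for YT. Without TC it was chr11:71010315-71010893 (TAZ4SA 10.03, YAP5SA 9.98, YT 11.9). Without YAP5SA it was chr13:21635103-21636003 (TAZ4SA 9.62, TC 11.6, YT 14.8).

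Whether the constructs peaked at the same point within a core region was asked from the summits. The median distance between summits was 34 bp for TAZ4SA and TC, 25 bp for TAZ4SA and YAP5SA, 38 bp for TAZ4SA and YT, 33 bp for TC and YAP5SA, 32 bp for TC and YT, and 31 bp for YAP5SA and YT. The share of regions with summits within 100 bp ran from 75.5% (TC and YT) to 84.4% (TAZ4SA and YAP5SA). The closest pair was thus the 2 active forms, from different proteins and different technical sets, rather than a fusion and its parent. The 95% interval of its median, 22 to 28 bp, did not reach the medians of the other 5 pairs, although the intervals of 3 of those pairs, such as 25 to 37 bp for YAP5SA and YT, touched it.

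Outside the core, regions holding both members of a pair gave similar distances. The median was 22 bp for TAZ4SA and YAP5SA in 552 such regions, and 34 bp for YAP5SA and YT in 1092. For TAZ4SA and TC it was 47 bp (95% interval 31 to 72) in 115 regions, against 34 bp (28 to 42) in core regions. Close summits were thus also found where fewer constructs met.

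**Figure D3:**
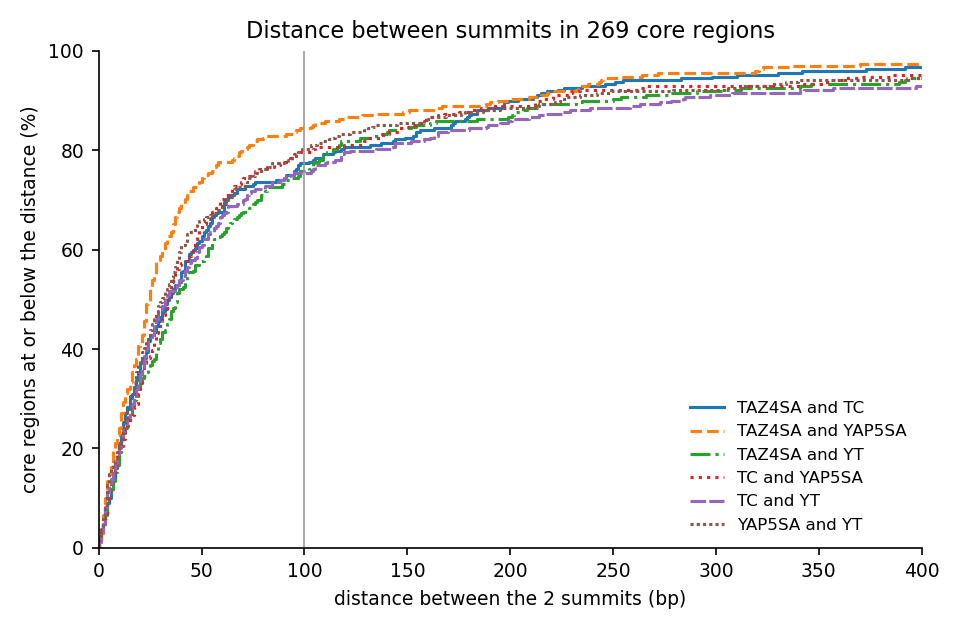
Each line gives, for 1 pair of constructs, the share of the 269 core regions (vertical axis, %) whose summits lie at or below the distance on the horizontal axis (bp). The grey line marks 100 bp, where the 6 curves stand between 75.5% and 84.4%, with TAZ4SA and YAP5SA highest.

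Over all 4 summits the median spread was 71 bp, and 159 core regions (59.1%) had the whole set within 100 bp. In 21 regions the spread was 20 bp or less. It was 5 bp at chr17:48105068-48106239, where fold enrichment was 15.3 for TAZ4SA, 14.8 for TC, 8.98 for YAP5SA and 9.61 for YT. At chr14:23451736-23452477 the spread was 8 bp, but both fusions exceeded their active form: TC 23.0 over TAZ4SA 10.2, and YT 12.0 over YAP5SA 6.32. At chr5:159510143-159510948, also with a spread of 8 bp, both fusions were below: 5.68 against 10.1 and 5.55 against 14.4. Summits that coincide almost to the base thus went with either direction of fusion signal.

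In a further 21 core regions the summits spread over 500 bp or more. The widest spread, 1808 bp, was at chr11:118780743-118783497, where the TAZ constructs and the YAP constructs had their strongest summits at opposite sides of a 2755 bp region. The widest core region was chr5:14035454-14039418, at 3965 bp with 7 peaks, and its strongest summits still fell within 266 bp. At chr1:16470691-16473814, also with 7 peaks, the strongest TC and YT summits lay apart from those of TAZ4SA and YAP5SA, with a spread of 1168 bp.

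The next comparison set the fold enrichment of each fusion at core sites against that of its active form. The part of construct expression or pulldown efficiency in these ratios was not tested. Fold enrichment was lower for TC than for TAZ4SA in 171 core regions and higher in 98, with a median ratio of 0.884 (log2 −0.18, 95% interval −0.29 to −0.12). TC was at least 2-fold lower in 33 core regions (12.3%) and at least 2-fold higher in 9 (3.35%). Over all 384 regions holding both constructs, 12.5% were called lower and 4.17% higher by the same 2-fold limit. The core regions make up most of those 384, and their shares were near this background, so nothing is read from them about the core.

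For YT and YAP5SA the median ratio was 0.811 (log2 −0.30, 95% interval −0.37 to −0.20), with 177 core regions below 1 and 92 above. YT was at least 2-fold lower in 24 core regions (8.92%) and at least 2-fold higher in 9 (3.35%), where the background over all 1361 regions with both constructs was 5.44% lower and 5.0% higher. In the 1092 non-core regions the median was −0.08 on the log2 scale (−0.11 to −0.05) and 4.58% were 2-fold lower (3.49% to 5.99%), against 6.07% to 12.9% in core regions. The median ratio was thus lower in core regions than in the other regions that YAP5SA and YT shared. Core membership was set by peaks in these same lists and in the TAZ lists. The difference therefore describes that choice and supports nothing further. Core regions were also the stronger ones, with a median YAP5SA fold enrichment of 7.18 against 5.18 in the 1092, and the part of strength in this difference was not tested.

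The fusion ratios of the 2 families moved loosely together. Both were below 1 in 124 core regions and both above 1 in 45. They pointed in opposite directions in the remainder, 53 with TC above TAZ4SA and YT below YAP5SA, and 47 the other way. The Spearman correlation of the ratios across the 269 regions was 0.31, a description over regions that share the same 4 lists. It was 0.23 over the 216 regions off chromosomes 5 and 20, and 0.42 over 135 regions with lists of equal length. At the 2-fold limit, 7 regions were lower for both fusions, none was higher for both and none was opposite.

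At chr9:100985234-100985943 both fusions were far below their active form, with fold enrichment of 26.4 for TAZ4SA and 4.72 for TC, and of 15.6 for YAP5SA and 4.80 for YT. The fragments at the summit gave a TC to TAZ4SA ratio of 0.217 (95% interval 0.133 to 0.342) and a YT to YAP5SA ratio of 0.291 (0.215 to 0.388), intervals that cover counting error only. The other 6 regions were chosen after their values were seen: chr5:10551152-10552969, chr20:49157305-49158066, chr11:94470364-94471173, chr22:41686632-41687357, chr20:22755985-22757008 and chr5:131794384-131795337. In the first of them TAZ4SA was at 24.3 and TC at 10.5, and YAP5SA at 16.1 and YT at 6.46.

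**Figure D4:**
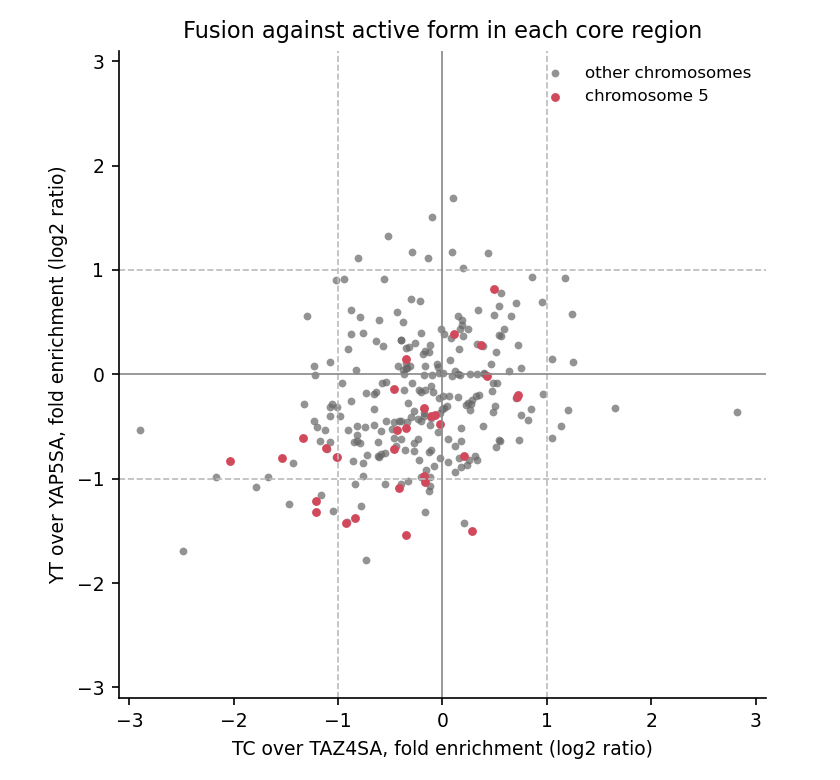
Each point is 1 of the 269 core regions, with the log2 ratio of fold enrichment of TC over TAZ4SA on the horizontal axis and of YT over YAP5SA on the vertical axis; red points are the 30 regions on chromosome 5 and dashed lines mark 2-fold. The lower left corner holds 7 regions and the upper right corner none.

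The largest single differences lay within the TAZ family, whose core summits held fewer fragments. The median was 30 for TAZ4SA and 28 for TC, against 99 for YAP5SA and 77 for YT. The part of counting error in the larger differences was not tested. At chr14:62221764-62222536 TAZ4SA reached its highest core value, 50.8, and TC was at 6.82, a ratio of 0.134. YAP5SA and YT were at 12.3 and 8.49 at the same site. At chr12:79940803-79941479 TAZ4SA was at 19.2 and TC at 4.26. At the first of these the TC value was close to its core median of 6.54, and the TAZ4SA value was far above its core median of 7.67.

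Summit fragments could not be recovered for TC at the site with the highest TC to TAZ4SA ratio, chr19:2462456-2463941, so its ratio of 7.05 has no value on the fragment scale. At chr17:854803-855462 the fold enrichment of TC was 10.4 and that of TAZ4SA 3.30, a ratio of 3.14. The ratio of summit fragments was 1.76 (1.01 to 3.14), and the local background used for TAZ4SA was 2.44 times its genome-wide level and that for TC 1.17 times. At chr1:145091526-145092948 the ratio fell from 2.38 in fold enrichment to 1.25 (0.749 to 2.12) in fragments, an interval that includes 1.

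The highest YT ratios were similar in fold enrichment and in summit fragments. Fragments were recovered from the same deposited values, so the scales are not independent. The sites were picked as extremes of the ratio, which the intervals do not allow for. At chr3:197183212-197183694 YT was at 11.6 and YAP5SA at 3.60, a ratio of 3.23, and the fragment ratio was 3.30 (2.36 to 4.68). At chr3:134082587-134083272 YT was at 14.4 and YAP5SA at 5.03, while TAZ4SA (17.7) and TC (16.6) were nearly level. The lowest ratio of fold enrichment, 0.291, was at chr13:102107138-102109222, with YAP5SA at 10.5 and YT at 3.07. The fragment ratio there was 0.411 (0.310 to 0.541). The local background used was 2.15 times its genome-wide level for YT and 1.37 times for YAP5SA. At chr5:95590714-95591437 YAP5SA was at 12.6 and YT at 4.35.

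Across core regions the ranks of fold enrichment agreed best for TAZ4SA and TC, with a Spearman rho of 0.51. The values were 0.45 for TC and YT and 0.44 for TAZ4SA and YAP5SA. They were lowest for YAP5SA and YT, at 0.27, and for TAZ4SA and YT, at 0.29. The value for the 2 fusions was thus higher than that for YT and YAP5SA, with no test of the difference. Outside the core, in regions holding both constructs of a pair, that order was reversed. There rho was 0.19 for TC and YT over 335 regions and 0.29 for YAP5SA and YT over 1092. It was 0.58 for TAZ4SA and YAP5SA (552 regions), 0.41 for TAZ4SA and TC (115) and 0.29 for TC and YAP5SA (389). For TAZ4SA and YT it was 0.09 (247). Agreement was thus not higher in the core for every pair. Within the core, the best pair depended on the processing. On summit fragments per mean coverage rho was 0.56 for TAZ4SA and YAP5SA and 0.51 for TAZ4SA and TC. With lists of equal length these values were 0.47 and 0.45. All points share the local base composition and copy number of the region, so these are descriptions.

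A TFE3 peak was not required of a core region, although TFE3 peaks took part in the merge, and TFE3 was rare at core sites. Merging the 4 lists alone, an alternative added after the data were seen, gave the same 269 regions in number and the same TFE3 share. A TFE3 peak was present in 5 of 269 core regions, or 1.86% (95% Wilson interval 0.796% to 4.28%). The share was 3.70% when the 4 lists were shortened to equal length and 1.18% when peaks in every list had q below 0.01. In the other 1092 regions holding YAP5SA and YT it was present in 86, or 7.88% (6.42% to 9.62%), a difference of −6.02 percentage points (−8.06 to −3.20). In the 694 regions with YAP5SA and YT but neither TAZ construct it was present in 77, or 11.1%, and the difference was −9.24 points (−12.0 to −6.02). Regions with YT alone of the 4 were at 7.90%.

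The low TFE3 share extended to other regions with a TAZ peak. It was 2.16% in 555 non-core regions holding YT and at least 1 TAZ construct, a difference from the core of −0.30 points (−2.21 to 2.28). It was 1.84% in regions holding exactly 3 constructs. Against all 6078 non-core regions holding any of the 4, whose share was 3.88%, the interval of the difference, −3.20 to 0.437 points, included 0.

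**Figure D5:**
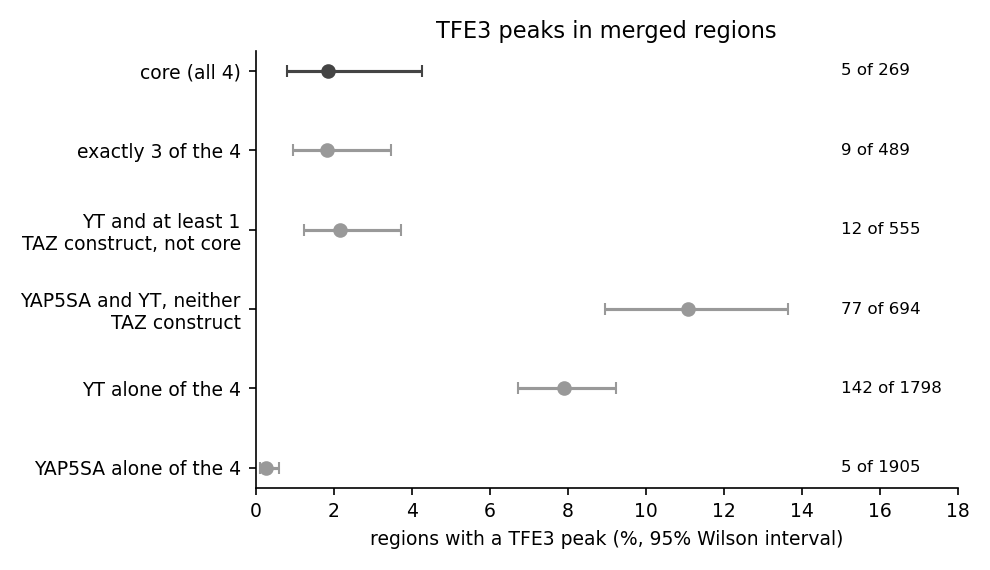
The horizontal axis gives the share of regions with a TFE3 peak (%), with 95% Wilson intervals, for core regions and 5 other classes of merged regions, and the numbers at the right are regions with a TFE3 peak of all regions in the class; the second and the third class share regions. Core regions stand at 1.86%, and regions with YAP5SA and YT but no TAZ peak at 11.1%.

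Width and strength differed between the classes as well. The median width was 852 bp in core regions and 522 bp in the 1092, and the part of width in the TFE3 share was not tested. When all regions with YAP5SA and YT were put in 3 equal classes by YT −log10 q, the strongest class had a TFE3 peak in 5 of 130 core regions, 3.85% (1.65% to 8.69%). In the 324 non-core regions of that class the share was 21.3% (17.2% to 26.1%). In the middle class it was 0 of 88 core regions, which allows a share of up to 3.41%, and 2.74% of non-core regions. In the weakest class it was 0 of 51, which allows up to 5.88%, and 1.74%. The gap was thus seen within the strongest class and was not detectable in the others.

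The 5 core regions with TFE3 were uneven. At chr11:85779777-85781057 the TFE3 fold enrichment was 21.5, beside 21.2 for YT, 8.47 for YAP5SA, 7.21 for TAZ4SA and 5.01 for TC. The TFE3 summit lay 26 bp from that of YT and 24 bp from that of YAP5SA, but 240 bp from TAZ4SA and 188 bp from TC. This site also had the highest YT fold enrichment of any core region. TFE3 was weaker at chr20:62065848-62066952, with a fold enrichment of 5.15 and its summit 10 bp from that of YT, and at chr9:132096078-132097068, with 4.36 and its summit 160 bp away. The last 2, at chr5:131723186-131724537 (3.67) and chr20:55362374-55364059 (3.57), were named after their values were seen, and the first of these has no position covered by all 4 constructs.

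CAMTA1 was not found at any core site. Its peaks were present in 0 of 269 core regions, which allows a share of up to 1.12%, and in 17 of 6078 non-core regions with any of the 4 (0.280%). The difference was −0.28 points, with an interval of −0.45 to 1.13, and with so few CAMTA1 peaks a lower share at core sites was not detectable. EV IgG, the background control, also had a peak in 0 of 269, with the same limit of 1.12%. Its list held 4 peaks on these chromosomes, so it could mark few regions of any kind.

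The chromosomes carrying core sites were chromosome 11 with 32, chromosome 5 with 30, chromosome 7 with 29 and chromosome 20 with 23, and each other chromosome had 22 or fewer. Chromosome 5 held 11.2% of core regions and 16.1% of all other merged regions, a difference of −4.98 points (−8.34 to −0.57). The other regions were mostly those of YAP5SA or YT alone, and chromosome 5 held 18.4% of YAP5SA and 16.01% of YT peaks but 10.3% of TAZ4SA and 8.53% of TC peaks, so the core share was not low beside the TAZ lists. Chromosome 11 went the other way, at 11.9% and 7.67%, a difference of 4.23 points (0.818 to 8.69), as did chromosome 17, at 6.69% and 3.19% (3.50 points, 1.04 to 7.16). The TAZ4SA and TC lists had 9.95% and 9.63% of their peaks on chromosome 11, and 4.55% and 4.73% on chromosome 17. Chromosome 6 had 2 core regions, 0.743% against 3.47% (−2.73 points, −3.45 to −0.76). Chromosome 20 did not stand apart, at 8.55% and 7.19%, with an interval of −1.50 to 5.36 points. These 5 are of 23 chromosomes compared, and the intervals are not adjusted for that number.

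The local background of the TAZ lists was higher on chromosomes 5 and 20. In core regions its median was 1.53 times the genome-wide level on chromosome 5 and 1.40 times on chromosome 20 for TAZ4SA, and 1.1 times elsewhere. For TC the multiples were 1.54, 1.42 and 1.14. For YAP5SA and YT all were 1.00, and 84.3% and 81.0% of core regions used the genome-wide level (within 0.01 of it), against 33.1% for TAZ4SA and 30.3% for TC. Median fold enrichment was higher on chromosome 5 only for YAP5SA, at 8.56 against 6.97 off that chromosome. It was 6.75 against 7.91 for TAZ4SA, 5.73 against 6.89 for TC and 5.59 against 5.85 for YT. The part of copy number or of the control libraries in these values was not tested.

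Within the YAP set, the fusion ratio was also lower on chromosome 5. The median log2 ratio of YT to YAP5SA was −0.66 (−0.83 to −0.39) in its 30 core regions and −0.26 (−0.34 to −0.15) in the 239 others, and 8 of the 24 regions at least 2-fold lower were there. For TC over TAZ4SA the medians were −0.35 (−0.47 to −0.07) and −0.17 (−0.27 to −0.11), intervals that overlap. This split by chromosome was added after the values had been seen.

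Of the 269 core regions, 46 (17.1%, 13.1% to 22.1%) had another core region within 50 kb and 12 (4.46%) within 10 kb. The median gap to the nearest was 764129 bp. Of all 6543 merged regions, 57.3% had another merged region within 50 kb and 29.3% within 10 kb. A set of 269 is sparser by number alone, so nothing is read from the lower core shares. Some other merged region lay within 50 kb of 69.5% of core regions (63.8% to 74.7%), beside that 57.3% (56.0% to 58.4%). The 46 with a core neighbour within 50 kb formed 22 groups, of which 20 were pairs and 2 were groups of 3.

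The group on chromosome 3, chr3:134045636-134093825, spanned 48.2 kb. Its 3 core regions had TAZ4SA fold enrichment of 22.2, 17.7 and 14.9 and TC fold enrichment of 8.87, 16.6 and 22.4 from left to right, so the order of the 2 TAZ constructs turned over within it. YAP5SA was at 11.1, 5.03 and 8.40, and YT at 9.16, 14.4 and 11.3. Between the first and the second lay chr3:134076332-134077076, the strongest region that lacked only YT (TAZ4SA 12.0, TC 9.19, YAP5SA 9.55). The group on chromosome 13, chr13:97926468-97981008, spanned 54.5 kb and was less strong, with YAP5SA at 5.68, 8.69 and 6.07 and YT at 4.91, 5.53 and 4.97.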

How the data were processed

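The members, the comparison regions and the rule for named sites were chosen with earlier results of these data known. Per the study's methods, the authors pooled replicate reads, and after trimming (Atropos) and alignment to GRCh37 (BWA-MEM) left out ambiguous and greylisted reads and called peaks with macs2. Each deposited list gives peak positions and a summit offset, with a display score that the authors' caller derived from q and that was not used here. Fold enrichment is a deposited ratio of pileup to local background, and which control libraries set that background was not settled. The recovery of fragments took a small constant as added to both pileup and background, so the ratio is below that of pileup to background alone. Its significance was deposited by the authors on a −log10 scale, both as a p-value and as a q-value.

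For each construct the peak with the highest −log10 p stood for a region. Summit fragments were recovered from the deposited fold enrichment and p where a whole number of fragments solved both, in 264 to 268 of 269 core regions per construct, and the recovery was tested on simulated peaks. Shares have 95% Wilson intervals, differences of shares Newcombe intervals, medians order-statistic intervals and fragment ratios exact binomial intervals. All cover counting error only and treat regions as independent, and beside a share of 0 stands the limit set by 3 counts.

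Sites were named as follows: the 6 with the highest lowest −log10 q, the 3 highest and 3 lowest of each fusion ratio, the 3 strongest with TFE3, the 3 widest, the 3 with the closest summits, the 3 weakest, and the strongest region lacking each construct. The supplied genome was GRCh38, and 45 of the 9899 peaks on chromosomes ended past its chromosome ends. The labels name hg38 as the build, against the study's methods and these positions. Genes, motifs and sequences at the sites were therefore not analysed here. Scripts ran under Python 3.11.15 with scipy 1.17.1, pandas 2.3.3, numpy 2.4.6 and, for figures, matplotlib 3.10.9.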

Additional observations from a re-analysis of the deposited data

How the results depend on the processing

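No paired analysis was possible because each construct has 1 pooled list and no result comes from a test over replicates, and leaving out a replicate was not possible for the same reason. For 22 results 151 alternatives were computed, and 140 were counted as unmoved, that is inside the interval of the main value. The number of core regions has no interval and was judged by a fold limit instead. When every list was shortened to its strongest 1166 peaks, 135 core regions remained in number. The median summit distance was then 24 bp for TAZ4SA and TC, 21 bp for TAZ4SA and YAP5SA and 29 bp for TAZ4SA and YT. The share with a TFE3 peak was 3.70% (1.18% with q below 0.01 in every list), the share within 50 kb of another core region was 8.15%, the rank correlation of TAZ4SA and YT was 0.148 and that of the fusion ratios 0.423. Taken from −log10 p instead of fold enrichment, the median log2 ratio of YT over YAP5SA was −0.40. The share with a core neighbour was 4.46% within 10 kb and 29.4% within 200 kb. With summit fragments per mean coverage the rank correlation of TAZ4SA and YAP5SA was 0.563, above the 0.511 of TAZ4SA and TC. The cause of these changes was not tested, except that shorter lists hold fewer peaks. The rank correlations, the TFE3 difference, the merge of the 4 lists alone and the set without chromosomes 5 and 20 were added after seeing the data. The TAZ lists had lower coverage than the YAP lists, and the part of coverage in which sites were called core was not tested.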
